A study of Drosophila melanogaster with 24 samples.

Results

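The genes described here are the Obstructor and peritrophin genes of Drosophila melanogaster, which encode secreted proteins that bind chitin. They were chosen by name, and a probe belonged to the set when the array's probe annotation gave it the old or the current symbol of obst-A, obst-B, obst-E, obst-F, obst-G, obst-H, obst-I, obst-J, Gasp or Peritrophin-A. All 10 were measured, with 23 probes, out of 12799 genes with a named probe. Gasp and Peritrophin-A are also listed as obst-C and obst-D, so that the set runs from obst-A to obst-J.

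Chitin is a sugar polymer that epithelial cells make and export at their apical face. It stiffens the cuticle over the epidermis, lines the tracheal tubes and forms part of the peritrophic matrix, the sheet between food and midgut. Proteins with peritrophin-type domains hold chitin fibres and other matrix proteins together, and the Obstructor family has been divided by sequence into the subgroup of obst-A, obst-B, Gasp, Peritrophin-A and obst-E and the subgroup of obst-F to obst-J.

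Whole animals from 6 groups were compared, all in a white (w-) background and kept at 25 degrees C. Manf is the fly homologue of a secreted neurotrophic factor of the endoplasmic reticulum, and MANFmzdelta96 embryos lacked it from mother and zygote through germline clones of the D96 allele. The paternalrescue embryos had the same mutant mothers and a wild type copy from the father, and Wmix embryos were the wild type. All embryos were at late stage 17; MANFmzdelta96 embryos were picked at 21 to 24 hours after egg laying, and the labels of the other embryos give air filling of the trachea in place of an age. MANFdelta96 larvae were zygotic D96 mutants that kept the maternal product. The 69B>MANF larvae carried UAS-Manf under 69B-GAL4, a driver of the epidermis, nervous system and imaginal discs that is not active in fat body or gastric caeca, and Wmix larvae were the wild type. Wild type larvae were 29 to 44 or 30 to 45 hours old and overexpressing larvae 29 to 44 hours, while mutant larvae 2 and 4 were 29 to 50 and 31 to 50 hours and mutant larvae 65 and 66 were 30 to 44 hours.

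Each group had 4 samples, and overexpressing larvae 69 and 70 were left out because they stood apart, which left 22. Over all 45220 probes the 22 samples correlated at 0.886 to 0.994 with each other and at 0.37 to 0.442 with larvae 69 and 70. Values are normalised intensities on a log2 scale, and probe means over the array have a median of 9.23. Dye and genotype were mixed: every wild type larva carried Cy3 and no mutant or overexpressing larva did, so that dye and genotype cannot be told apart between those groups. Replicate numbers formed a low series (1 to 4) and a high series (63 to 88). The brighter Manf probe read 11.10 to 11.48 in wild type embryos, 9.14 to 11.29 in embryos labelled MANFmzdelta96, 10.46 to 13.50 in mutant larvae against 11.59 to 13.64 in wild type larvae, and 14.23 and 14.40 in overexpressing larvae. The sample labelled MANFmzdelta96 embryo 1 was the one at 11.29, inside the wild type range. Where a gene's difference between MANFmzdelta96 and wild type embryos is described, its value at the brightest probe is also given without that sample. Marker levels and counts, list medians, differences at other probes and the fit with the series as a factor include it. Mutant larvae 65 and 66, at 12.48 and 13.50, lay inside the wild type larval range. Mutant larvae 2 and 4, at 10.67 and 10.46, lay below it.

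Bright probes met a ceiling. In wild type embryo 82, 441 probes shared the top value of 15.09, among them 7 of the 23 probes described here, which belonged to Gasp, obst-A, obst-E and Peritrophin-A. The brightest obst-A probe sat at its sample's top value in 5 of 22 samples. Such values are lower bounds, and differences that rest on them are compressed.

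**Figure D1:**
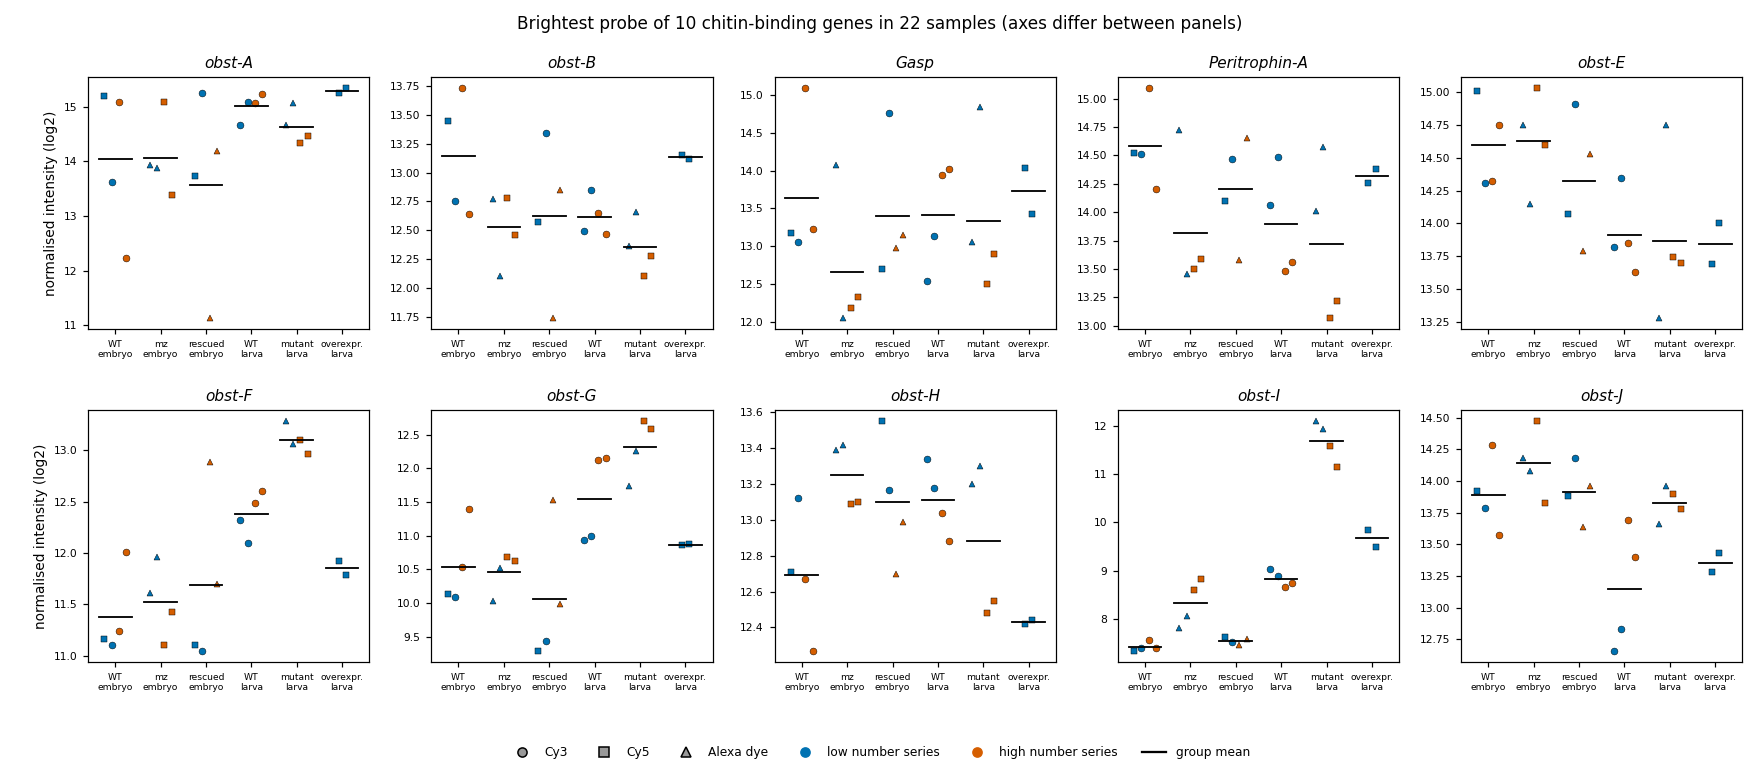
Normalised intensity on the log2 scale (vertical axis, different in each panel) of the brightest probe of each of the 10 genes in 22 samples, by group along the horizontal axis. Symbols give the dye, colours the number series and lines the group mean. The obst-I panel has mutant larvae at 11.15 to 12.09 above every other sample, and the obst-A panel has embryos spread from 11.14 to 15.24.

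Across the comparisons of mutants with wild type, obst-I was the called gene of the set. It was higher in MANFmzdelta96 than in wild type embryos and, by a larger amount, higher in MANFdelta96 than in wild type larvae. No other gene of the set passed the threshold in a comparison with wild type of the same stage. A gene is called when its limma p, adjusted after Benjamini and Hochberg over 12799 genes, is below 0.01.

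The expression of obst-I was low in embryos. Wild type embryos 1, 2, 82 and 83 read 7.34, 7.40, 7.57 and 7.39, and the rescued embryos 1, 2, 66 and 84 read 7.63, 7.52, 7.45 and 7.58. These values lie just above 7.04, the lower quartile of probe means on the array. MANFmzdelta96 embryos 1, 4, 87 and 88 read 7.82, 8.05, 8.59 and 8.82, so that all 4 lay above all wild type and all rescued embryos. The difference from wild type was 0.89 on the log2 scale (SE 0.20, 1.86-fold, adjusted p = 0.0061), and both obst-I probes were called, at 0.89 and 1.14. Against rescued embryos it was 0.77 (SE 0.20, adjusted p = 0.0194), which did not pass, and without MANFmzdelta96 embryo 1 it was 0.94 (adjusted p = 0.0028), which did.

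Of the 10 genes 1 was called between MANFmzdelta96 and wild type embryos, where 6.42% of all genes were. In whole animals, fewer cells that express a gene and less RNA per cell cannot be told apart. The embryonic obst-I call was sensitive to its samples. Without MANFmzdelta96 embryo 1 the difference was 1.06 (adjusted p = 8.38e-04), but without wild type embryo 1, 2, 82 or 83 adjusted p was 0.0155, 0.0167, 0.0119 and 0.0181, and without MANFmzdelta96 embryo 87 or 88 it was 0.025 and 0.0259. The low series alone gave 0.56 (adjusted p = 0.0724) and the high series alone 1.23 (adjusted p = 0.00243). With dye as a covariate the difference was 0.94 and the call was lost (adjusted p = 0.0754). Within single dyes the order was the same. In Cy5, MANFmzdelta96 embryos 87 and 88 read 8.59 and 8.82 against 7.34 and 7.63 for wild type embryo 1 and rescued embryo 1. In the Alexa dye, MANFmzdelta96 embryos 1 and 4 read 7.82 and 8.05 against 7.45 and 7.58 for rescued embryos 66 and 84. The mutants and their comparison embryos came from different number series in both dyes, so genotype and series cannot be told apart there.

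**Figure D2:**
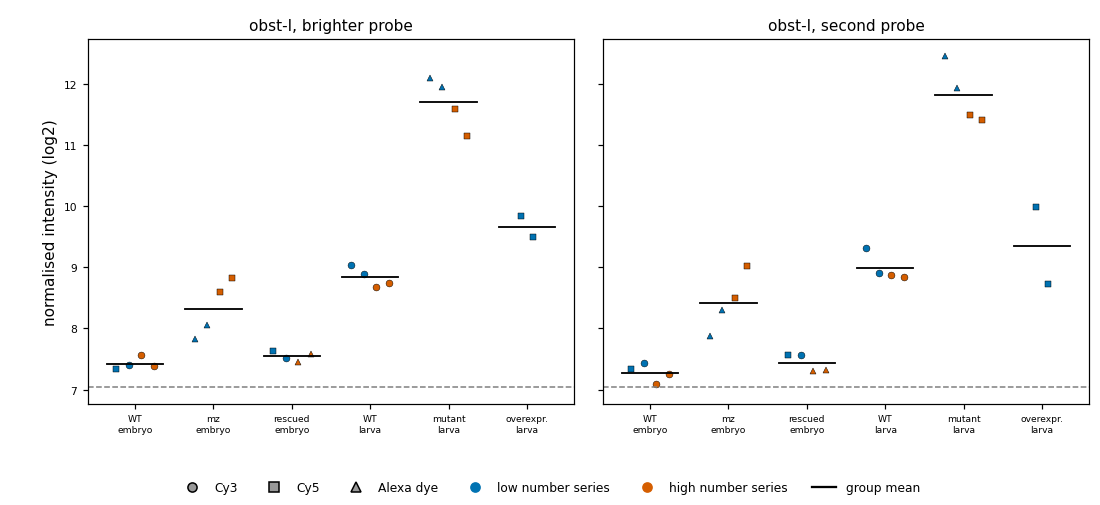
Normalised intensity on the log2 scale of both obst-I probes (1 panel each) in 22 samples, by group, with symbols for the dye, colours for the number series, lines for group means and a dashed line at 7.04, the lower quartile of all probe means. In both panels the 4 mutant larvae lie above 11 and every other sample below 10.

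In larvae obst-I stood higher, and the mutants stood far apart. Wild type larvae 1, 2, 63 and 65 read 9.03, 8.89, 8.67 and 8.75. Mutant larvae 2, 4, 65 and 66 read 12.09, 11.94, 11.59 and 11.15, and overexpressing larvae 2 and 3 read 9.84 and 9.49. On this brighter probe the 3 larval genotypes did not overlap, with wild type lowest, overexpressing larvae between and mutants highest. On the second probe the mutants were again highest, while overexpressing larva 3, at 8.72, lay below the wild type larvae, at 8.84 to 9.31.

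The difference between mutant and wild type larvae was 2.86 (SE 0.20, 95% interval 2.43 to 3.28, 7.25-fold, adjusted p = 8.35e-08), with 2.83 and 2.86 at its probes. By p it ranked 2 of 12799 genes, of which 2.68% were called in this comparison, and it was the 1 called member of the set. The gene was also higher in mutant than in overexpressing larvae, by 2.03 (SE 0.25, 4.07-fold, adjusted p = 4.54e-05), where again 1 of the 10 genes was called against 3.77% of all genes. Overexpressing larvae lay 0.83 above wild type (SE 0.25), which did not pass at adjusted p = 0.095, and 0.37 above it on the second probe. No gene of the 10 passed between overexpressing and wild type larvae, where 0.711% of all genes did. Before adjustment p was below 0.05 for obst-I, at 0.00336, and obst-H, at 0.0167. These larval comparisons share samples, so that they are not separate tests of obst-I.

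Dye, age and series could be compared in part for the larval call. With dye as a covariate the difference was 2.91 (adjusted p = 2.55e-04). No larval genotype held both Cy3 and another dye, so the Cy3 term of this fit came from embryos, where obst-I was low. It therefore did not separate dye from genotype within larvae. Mutant larvae 65 and 66 carried Cy5 like overexpressing larvae 2 and 3, and read 11.59 and 11.15 against 9.84 and 9.49. These mutants were of the high series and the overexpressing larvae of the low one, so genotype and series cannot be told apart there. In mutant larvae 65 and 66 the brighter Manf probe lay inside the wild type larval range, with mutant larva 65 below wild type larvae 63 and 65. The age range of mutant larvae 65 and 66, 30 to 44 hours, lay within that of wild type larvae 63 and 65. The high series, which holds all of these larvae, gave 2.66 for obst-I (adjusted p = 3.77e-04). The low series gave 3.06 (adjusted p = 1.25e-04), and leaving out any 1 of the 22 samples gave 2.73 to 3.04 with the call kept each time. All 8 listed gut markers had higher fitted values in mutant than in wild type larvae, where 47.4% of all genes had. Of the 8, 0 were called and 1 had p below 0.05 before adjustment. Dye and genotype cannot be told apart for these markers either. Their mean level was 14.35 to 14.56 in mutant larvae, 14.37 to 14.47 in overexpressing larvae and 13.82 to 13.99 in wild type larvae. Their part in the obst-I result was not tested.

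For obst-I the difference between mutant and wild type was larger in larvae than in embryos. The difference between both effects of mutation was 1.96 for obst-I (SE 0.29, adjusted p = 5.87e-04), the 1 called gene of the 10, against 1.41% of all genes. The mutants are not alike, since MANFdelta96 larvae had maternal Manf and MANFmzdelta96 embryos did not. In the high series alone the difference was 1.43 (adjusted p = 0.0134), and without MANFmzdelta96 embryo 1 it was 1.80 (adjusted p = 3.48e-04). Wild type larvae had more obst-I than wild type embryos, by 1.41 (SE 0.20, 2.65-fold, adjusted p = 1.90e-05), with no overlap.

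**Figure D3:**
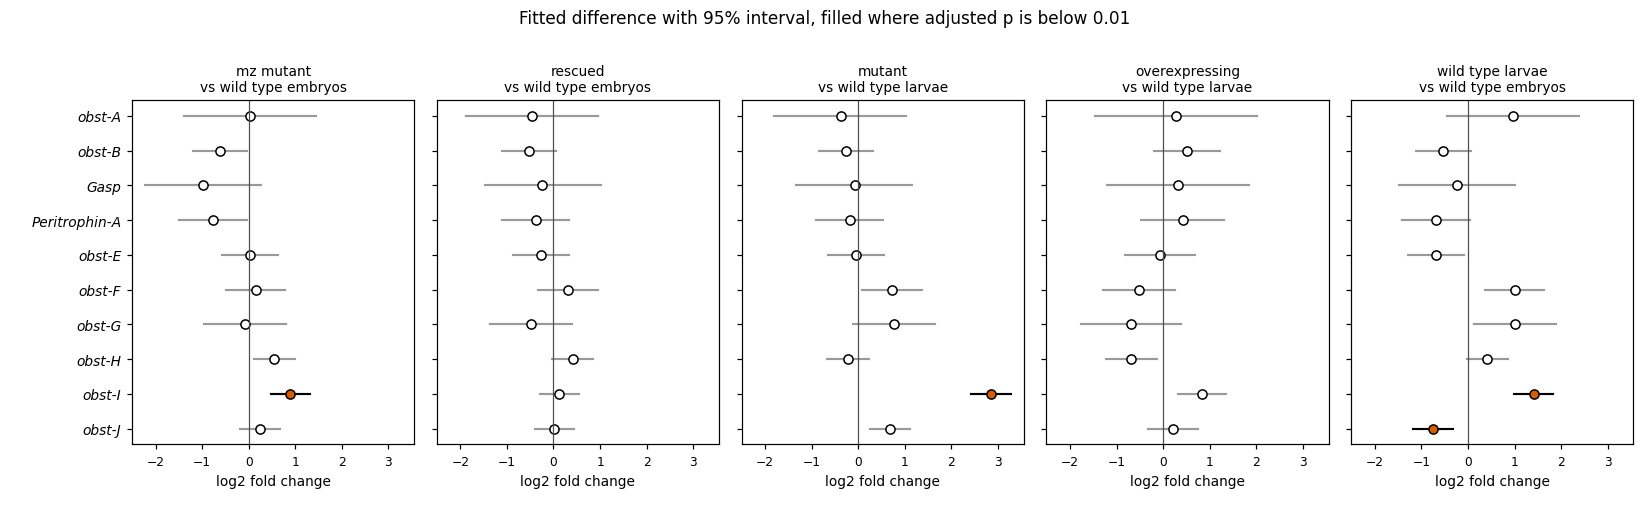
Fitted log2 fold change (horizontal axis) with its 95% interval for each of the 10 genes in 5 comparisons, filled where limma's adjusted p is below 0.01. The obst-I points are filled at 0.89 for MANFmzdelta96 embryos, 2.86 for mutant larvae and 1.41 for stage, and the obst-J point is filled at -0.75 for stage.

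The relatives obst-F and obst-G also had their highest levels in mutant larvae. For obst-F, wild type larvae 1, 2, 63 and 65 read 12.32, 12.10, 12.49 and 12.60, mutant larvae 2, 4, 65 and 66 read 13.28, 13.06, 13.10 and 12.96, and overexpressing larvae 2 and 3 read 11.92 and 11.79. Mutants were thus highest and overexpressing larvae lowest, without overlap. The mutant difference from wild type was 0.72 (SE 0.31, adjusted p = 0.218) and that from overexpressing larvae 1.25 (SE 0.37, adjusted p = 0.0426), neither of which passed. When larvae were fitted without embryos, both passed, with adjusted p = 0.00917 and 0.00166 and the same differences, since the common spread then left out the embryos. With dye as a covariate they were 0.34 (adjusted p = 1) and 0.94 (adjusted p = 0.122), and the mutant difference from wild type was 0.96 in the low and 0.48 in the high series (adjusted p = 0.0125 and 0.568). Rescued embryo 66 read 12.89, where rescued embryos 1, 2 and 84 read 11.11, 11.05 and 11.70, and without it the difference between mutant and overexpressing larvae passed at adjusted p = 0.00457. The second, dimmer obst-F probe gave 0.89 for mutant against wild type larvae (adjusted p over all probes = 0.0121). Against overexpressing larvae it gave 1.22, which passed over all probes (adjusted p = 0.0043).

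For obst-G, wild type larvae 1, 2, 63 and 65 read 10.93, 11, 12.12 and 12.16. Mutant larvae 2, 4, 65 and 66 read 11.74, 12.26, 12.70 and 12.59 and overexpressing larvae 2 and 3 read 10.86 and 10.87. Mutant and wild type larvae overlapped, and in both genotypes the high series was the higher one, by 1.17 in wild type and 0.64 in mutant larvae. The mutant difference from wild type was 0.77 (SE 0.42, adjusted p = 0.409) and that from overexpressing larvae 1.46 (SE 0.52, adjusted p = 0.0868). All overexpressing larvae kept here belong to the low series, where mutants exceeded them by 1.13 with adjusted p = 0.00866.

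Both genes were higher in larvae than in embryos of the wild type. Wild type embryos 1, 2, 82 and 83 read 11.16, 11.11, 11.24 and 12.01 for obst-F, all below every wild type larva. The stage difference was 1.00 (SE 0.31, adjusted p = 0.0153), and it passed without wild type embryo 83 (1.21, adjusted p = 0.00593) or rescued embryo 66 (1.00, adjusted p = 9.43e-04). On the second obst-F probe the stage difference was 1.07, which passed over all probes (adjusted p = 4.07e-04). For obst-G the embryos read 10.13, 10.09, 10.53 and 11.40, the last of which lies within the larval range. That stage difference was 1.01 (SE 0.42, adjusted p = 0.0717), and it passed once the series entered the fit as a factor, at adjusted p = 0.00549.

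The gene obst-J ran the other way with stage. Wild type embryos 1, 2, 82 and 83 read 13.92, 13.79, 14.28 and 13.57 and wild type larvae 1, 2, 63 and 65 read 12.66, 12.83, 13.69 and 13.40. It fell by 0.75 on the log2 scale in larvae (SE 0.20, 1.68-fold, adjusted p = 0.00756), although wild type larva 63 overlapped with the embryos. The second probe gave -0.89 (adjusted p over all probes = 4.00e-04). On it wild type larvae, at 12.25 to 13.15, did not overlap with wild type embryos, at 13.44 to 13.85. Together obst-I and obst-J made 2 called genes of 10 between the stages, where 24.7% of all genes were called. The obst-J call was lost in the high series (-0.38, adjusted p = 0.346), with dye as a covariate (-0.78, adjusted p = 0.0113), and without wild type embryo 1, 2 or 82 (adjusted p = 0.018, 0.0135 and 0.033) or wild type larva 1 or 2 (-0.58 and -0.64, adjusted p = 0.0363 and 0.0313).

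Mutant larvae 2, 4, 65 and 66 read 13.66, 13.96, 13.90 and 13.78 for obst-J, close to each other and near the embryonic values. They overlapped with wild type larva 63, and the difference of 0.68 (SE 0.20, adjusted p = 0.0597) did not pass. In the low series alone, where wild type larvae were at their lowest, it was 1.07 (adjusted p = 0.00899), and in the high series it was 0.29 (adjusted p = 0.667). Overexpressing larvae read 13.28 and 13.43. On the second probe mutant larvae, at 13.31 to 13.75, did not overlap with wild type larvae, at 12.25 to 13.15. That difference was 0.76 (adjusted p over all probes = 0.0103) and did not pass.

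For obst-H the largest differences from wild type were in MANFmzdelta96 embryos and in overexpressing larvae, in opposite directions. Rescued embryos were also above wild type embryos, by 0.41, and MANFmzdelta96 embryos exceeded rescued embryos by 0.14 (adjusted p = 0.783). MANFmzdelta96 embryos 1, 4, 87 and 88 read 13.39, 13.42, 13.09 and 13.10 and wild type embryos 1, 2, 82 and 83 read 12.71, 13.12, 12.67 and 12.27, with wild type embryo 2 inside the mutant range. The difference was 0.55 (SE 0.21, adjusted p = 0.094), and 0.51 without MANFmzdelta96 embryo 1 (adjusted p = 0.154). The 3 probes gave 0.50 to 0.79. On the dimmest of them MANFmzdelta96 embryos, at 11.89 to 12.82, did not overlap with wild type embryos, at 11.44 to 11.64. Adjusted p over all probes was 0.00283. Rescued embryos, at 11.91 to 12.09, did not overlap with wild type embryos there either. Overexpressing larvae read 12.42 and 12.44 against 13.34, 13.18, 13.04 and 12.88 in wild type larvae, a difference of -0.68 (SE 0.26, adjusted p = 0.225). Once the series entered the fit as a factor, the differences of MANFmzdelta96 embryos and of overexpressing larvae from wild type passed. They were 0.55 (adjusted p = 0.00542) and -0.91 (adjusted p = 0.00339). In every group with both series the high one was lower for obst-H, by 0.30 to 0.74.

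The genes of the other subgroup had wide spreads within groups. The protein of obst-A organises newly deposited chitin in the epidermal cuticle. Its brightest probe read 15.19, 13.62, 15.09 and 12.24 in wild type embryos 1, 2, 82 and 83, and 13.73, 15.24, 11.14 and 14.18 in rescued embryos 1, 2, 66 and 84. MANFmzdelta96 embryos lay between, at 13.93, 13.87, 15.08 and 13.39. The standard error of each of these differences was 0.68, so that the interval for MANFmzdelta96 against wild type embryos ran from -1.39 to 1.45 around 0.03 (0.08 without embryo 1), and differences within it could not be told from 0 at this spread. On this probe larvae were tighter and close to the ceiling. They read 14.67 to 15.22 in wild type, 14.33 to 15.06 in mutant and 15.25 and 15.33 in overexpressing larvae. The dimmest obst-A probe spread widely in larvae too, at 11.66 to 13.35 in wild type and 10.97 to 14.29 in mutants. For MANFmzdelta96 against wild type embryos the dimmer probes gave -0.15, -0.08 and -0.29.

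Gasp, the antigen of a widely used antibody against the tracheal lumen, had 1 high embryo in several groups. Wild type embryos 1, 2, 82 and 83 read 13.18, 13.06, 15.09 and 13.23. MANFmzdelta96 embryos 1, 4, 87 and 88 read 14.07, 12.05, 12.18 and 12.33, and rescued embryos 1, 2, 66 and 84 read 12.70, 14.77, 12.98 and 13.15. Apart from the sample labelled MANFmzdelta96 embryo 1, the mutants were below all other embryos. The fitted difference from wild type was -0.98 (SE 0.59, adjusted p = 0.333), -0.50 without wild type embryo 82 (adjusted p = 0.72) and -1.45 without MANFmzdelta96 embryo 1 (adjusted p = 0.101). The second, dimmer Gasp probe moved the other way, by 0.47, so that the probes of Gasp gave no common direction. Of 6 tracheal markers listed 3 were measured, with mean levels of 11.06 to 11.55 in MANFmzdelta96 and 11.64 to 11.97 in wild type embryos. Of these 3, 0 were called and 3 had p below 0.05 before adjustment, with 1 higher and 2 lower in the mutants. Their part in the Gasp values was not tested.

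Peritrophin-A showed the same high embryo. MANFmzdelta96 embryos 1, 4, 87 and 88 read 14.72, 13.46, 13.50 and 13.59, and wild type embryos 1, 2, 82 and 83 read 14.52, 14.51, 15.09 and 14.20. The last 3 MANFmzdelta96 embryos lay below all wild type embryos, and embryo 1 lay within their range. The difference was -0.76 (SE 0.35, adjusted p = 0.169) with -0.76 and -0.68 at its probes, and without MANFmzdelta96 embryo 1 it was -1.07 (adjusted p = 0.0318). In both wild type and mutant larvae the high series was lower, by 0.76 and 1.14.

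For obst-B the MANFmzdelta96 embryos read 12.77, 12.10, 12.78 and 12.46 against 13.45, 12.75, 13.73 and 12.64 in wild type embryos, with overlap, and the difference was -0.61 (SE 0.28, adjusted p = 0.169), or -0.70 without MANFmzdelta96 embryo 1 (adjusted p = 0.132). Rescued embryos were lower by a similar amount, -0.52 (SE 0.28, adjusted p = 1). Overexpressing larvae, at 13.15 and 13.12, exceeded the wild type larvae at 12.47 to 12.85 and the mutant larvae at 12.10 to 12.66. The difference between mutant and overexpressing larvae was -0.78 (SE 0.34, adjusted p = 0.166). On the second obst-B probe overexpressing larvae 2 and 3 read 13.28 and 12.40. There larva 3 lay inside the range of the wild type larvae, 12.07 to 12.79.

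The gene obst-E, whose product shapes the larval and pupal cuticle, had small differences in each Manf comparison at its brightest probe. Its dimmest probe gave -0.58 for mutant against wild type larvae (adjusted p over all probes = 0.793). On that probe mutant larvae 2, 65 and 66 read 12.18, 12.29 and 12.21, below the wild type larvae at 13.12 to 14.24. Mutant larva 4 read 14.85, above them. The values that follow are from the brightest probe. The differences from wild type were 0.03 in MANFmzdelta96 embryos (SE 0.29, 95% interval -0.58 to 0.64, and 0 without embryo 1), -0.27 in rescued embryos, -0.05 in mutant larvae (95% interval -0.66 to 0.56) and -0.07 in overexpressing larvae. Wild type larvae, at 13.63 to 14.35, were below wild type embryos, at 14.31 to 15.01, apart from larva 2. That difference was -0.68 (SE 0.29, adjusted p = 0.078).

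Rescued embryos, with wild type Manf from the father, could not be told from wild type embryos in this set. Differences between rescued and wild type embryos ran from -0.52 for obst-B to 0.41 for obst-H, and 0 of 10 genes were called, with 0.164% of all genes called and 4 of the 10 positive. None had p below 0.05 before adjustment, the lowest being 0.069 for obst-H. Between MANFmzdelta96 and rescued embryos 0 of 10 were called against 3.99% of all genes, and obst-I was the 1 with p below 0.05 before adjustment, at 0.00118.

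Over the 22 samples obst-F and obst-G varied together (r = 0.88), and both varied with obst-I (r = 0.74 and 0.71). Once group means were removed obst-F and obst-G still shared their variation (r = 0.76), while obst-I did not vary with either (r = -0.19 for both). Among the other subgroup obst-B varied with Peritrophin-A (r = 0.75, and 0.66 within groups), and obst-A with obst-B within groups (r = 0.89). In the same samples obst-A ran against obst-F (r = -0.78 within groups). All of these points share array, dye and sample quality, and they are given as a description. On the X chromosome obst-A and Peritrophin-A are neighbours with 0 protein-coding genes between them, and their correlation was 0.21, while obst-F and obst-J on chromosome arm 3L have 5 genes between them and correlated at -0.35.

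**Figure D4:**
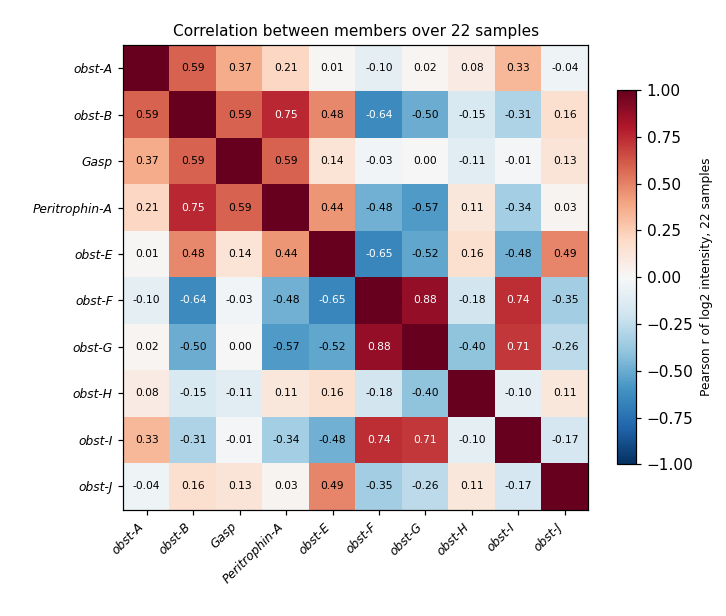
Pearson correlation of log2 intensity between the 10 genes over 22 samples, at the brightest probe of each, from -1 (blue) to 1 (red). The pairs among obst-F, obst-G and obst-I stand at 0.71 to 0.88, and obst-B with Peritrophin-A at 0.75.

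The genes most like each member by Pearson correlation over the 22 samples, out of all 12799, are given as a description. For obst-I they were Def, an antimicrobial peptide (r = 0.948), tobi, a glycosidase (r = 0.935), and Jon65Aii, a serine protease of the Jonah family (r = 0.915). For obst-F they were the maltase gene Mal-B2 (r = 0.92), Sfxn2 (r = 0.912) and CG12877 (r = 0.904), and for obst-G they were Sqor (r = 0.936), CG11456 (r = 0.922) and again Mal-B2 (r = 0.918). For obst-A they were CG2233 (r = 0.888) and the cuticle protein genes TwdlF (r = 0.885) and Cpr65Eb (r = 0.881). The closest gene was TwdlE for Gasp (r = 0.884), GLaz for Peritrophin-A (r = 0.862) and Vajk4 for obst-B (r = 0.831). It was CG13228 for obst-E (r = 0.871), Mlc-c for obst-H (r = 0.862) and CG31789 for obst-J (r = 0.828).

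Other genes of chitin biology passed the threshold in these comparisons. Over all genes 6.42% were called between MANFmzdelta96 and wild type embryos. Among 14 measured genes of chitin synthesis and deposition 2 were called higher and 0 lower in MANFmzdelta96 than in wild type embryos: kkv, the chitin synthase of the cuticle, rose by 2.01 (adjusted p = 0.00357), and knk, which is needed for ordered chitin fibres, rose by 1.78 (adjusted p = 2.03e-05). The list median was -0.39, against -0.052 over all genes. Among 16 chitinases and relatives the chitinase Cht10 was the 1 called gene, at -1.17 (adjusted p = 0.00264), and of 20 other peritrophins and mucins Muc68E rose by 2.49 (adjusted p = 1.32e-05) and Peritrophin-15b fell by 1.33 (adjusted p = 0.00324). Without MANFmzdelta96 embryo 1 all 5 stayed called, at 2.13 for kkv, 1.97 for knk, -1.29 for Cht10, 2.88 for Muc68E and -1.49 for Peritrophin-15b. In the same embryos the mean level of 6 epidermal markers was 11.48 to 11.92, above the wild type at 10.52 to 11.17, with 3 of the 6 higher and 3 lower. Of these 1 was called, ple, an enzyme of cuticle tanning, at 3.20 (3.32 without MANFmzdelta96 embryo 1). The part of the epidermal markers in these values was not tested.

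In mutant larvae Muc68E was called again, with Chs2 and Muc55B, where 2.68% of all genes were called. Chs2, the chitin synthase of the midgut, rose by 0.97 (adjusted p = 0.00103), as 1 of 14 genes of synthesis and deposition, with a list median of -0.08 against -0.017 over all genes. The mucin genes Muc55B and Muc68E rose by 1.86 (adjusted p = 3.32e-04) and 1.90 (adjusted p = 3.02e-04), the 2 called of 20 peritrophins and mucins, and 0 of 16 chitinases and relatives were called, with 3 at p below 0.05 before adjustment. The 20 peritrophins and mucins had a median of 0.02. The median over the 10 Obstructor and peritrophin genes was -0.06 in mutant larvae and 0.03 in MANFmzdelta96 embryos.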

How the data were processed

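RNA from whole embryos and larvae was labelled with Cy3, Cy5 or an Alexa dye and hybridised to Agilent fly arrays. The authors read each spot's median intensity in GenePix Pro 6.0, and limma in R served for their preprocessing, in a version not given in the sources used here. The deposited values are log2 normalised intensities, 45220 probes in 24 samples, and 0 other sample columns were left unused. No genome build is named, so no coordinates are given. Gene names came from the platform annotation, updated by identifier.

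In R 4.3.3 with limma 3.58.1, 1 linear model of 6 group means was fitted over 22 samples, each gene at its brightest probe by mean, with the Benjamini and Hochberg adjustment of p-values over 12799 genes and a threshold of 0.01. The script was tested on simulated data. Every gene of the set is named, with the 3 most correlated genes for each, and other lists by counts and called genes. Members and lists were chosen with earlier results of these data known. The labels give 4 samples per group and the methods 3 biological samples per genotype, so that a p-value reflects only how these samples spread, which may be technical. The number of arrays limits the precision. Alternatives are listed at the end.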

Additional observations from a re-analysis of the deposited data

Results flagged for a closer look

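In groups of 4, a sample is listed when its gap to the nearest other takes up more of the range than Dixon's 95% critical value allows, which chance gives in about 1 of 20 groups. Gasp read 15.09 in wild type embryo 82, where the others read 13.06 to 13.23, and that value is the shared maximum of the sample. In the sample labelled MANFmzdelta96 embryo 1, Gasp read 14.07 against 12.05 to 12.33 in the others and Peritrophin-A read 14.72 against 13.46 to 13.59. Wild type embryo 83 read 12.01 for obst-F, where the others read 11.11 to 11.24. For obst-I the effect of mutation differed between larvae and embryos by 1.96 (limma, adjusted p = 5.87e-04). In data kept out of the comparisons, the brightest obst-B probe read 13.10 and 12.99 in overexpressing larvae 69 and 70, above the wild type larvae at 12.47 to 12.85, while the second obst-B probe read 11.96 and 10.52 there.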

How the results depend on the processing

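Quantile normalization and leaving out dim probes left the number of called members as it was in every comparison. For stage, 2 in the 22 samples, the count was 3 with the mean of a gene's probes, with the series as a factor, in the low series alone, with a threshold of 0.05 and with the replicate block. With all 24 samples the count was 0 for MANFmzdelta96 against wild type embryos, 0 for stage, 0 for the difference between both effects of mutation and 2 for mutant against overexpressing larvae, and obst-I turned from 0.83 to -0.56 between overexpressing and wild type larvae. With dye as a covariate, in the low series alone and with stages fitted apart the count for MANFmzdelta96 against wild type embryos was 0, and with the series as a factor it was 2, with 1 for overexpressing against wild type larvae. The low series gave 2 for mutant against wild type larvae and 3 for mutant against overexpressing larvae, and stages fitted apart gave 2 and 2. The high series gave 1 for MANFmzdelta96 against rescued embryos, 1 for stage and 0 for the difference between effects. A threshold of 0.05 gave 1 for MANFmzdelta96 against rescued embryos and 2 for mutant against overexpressing larvae. Leaving out 1 sample gave 0 to 1 for MANFmzdelta96 against wild type embryos, 0 to 1 against rescued embryos (1 without MANFmzdelta96 embryo 1), 1 to 2 for mutant against overexpressing larvae (2 without rescued embryo 66) and 1 to 3 for stage (3 without wild type embryo 83 or rescued embryo 66, 1 without wild type embryo 1, 2 or 82 or wild type larva 1 or 2). The share of all genes called under each of these settings is not given here, so these counts are not read as a result about the set. The cause of the changes was not tested.

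The main fit did not pair samples of the same number. Over 19 such pairs the correlation of their deviations ran from -0.23 to 0.54, with 13 above 0.1. Pairs of unlike number were not compared, so these values do not decide whether samples share variation by number. With the replicate block (consensus correlation 0.219) obst-F was also called for stage (1.01, adjusted p = 0.00986), the other counts were the same as without it, and obst-I stood at 2.87 in mutant larvae (adjusted p = 4.63e-08) and 0.87 in MANFmzdelta96 embryos (adjusted p = 0.0064). Of 80 fitted differences 14 changed sign in the low series, 8 with dye as a covariate and 6 with the mean of probes, none of them with p below 0.05 in the 22 samples. Values at the ceiling and the dim obst-I values in embryos limit what intensity can show.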

Other observations

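In overexpressing larvae 69 and 70, which were left out above, the probes of a gene did not read alike. The obst-I probes read 6.88 and 8.90 in larva 69 and 6.89 and 7.29 in larva 70, the obst-H probes read 11.02, 7.25 and 11.65 in larva 69 and 8.31, 11.80 and 10.88 in larva 70, and the obst-E probes read 13.56, 8.21 and 10.84 in larva 69 and 12.24, 12.24 and 7.84 in larva 70. In overexpressing larvae 2 and 3 the obst-E probes lay between 13.57 and 14.03.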
